A study of Arabidopsis thaliana with 24 samples.

Results

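The change in gene expression between 0.5 h and 12 h at 4 °C was compared between roots and shoots of Arabidopsis thaliana, to find the genes that were induced or repressed in a single tissue by 12 h. The tissue difference of a gene is its change in roots (12 h minus 0.5 h) minus its change in shoots (12 h minus 0.5 h), on the scale log2(intensity + 10), where an intensity is the brightness of a probe set on the array. It rests on 8 of the 24 arrays of the series, 2 arrays in each of 4 groups, and was tested for all 22746 probe sets other than the array's own controls. All plants were of the Col-0 accession, grown on Murashige and Skoog medium at 24 °C and 50% humidity in 16 h days. The cold began on day 16, after 3 h of light, when the boxes of plants were set on ice in a cold room with a lamp added over them. The light cycle in the cold room is not stated. No untreated group was among the arrays, so each change is against plants that had been in the cold for 0.5 h. The 0.5 h samples were taken 3.5 h and the 12 h samples 15 h after the light came on, so that at 12 h the hours spent in the cold cannot be told apart from the time of day. The arrays of a group are not stated to come from separate plants or cultures, so the p-values measure the spread between these arrays, which may be technical.

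Chilled plants adjust within hours. CBF transcription factors switch on cold-regulated (COR) genes, whose hydrophilic products protect membranes and proteins, while growth slows and the circadian clock, light and sugar supply go on shaping many other genes. Roots and shoots share the CBF pathway but not photosynthesis or contact with the air. A gene can answer in a single tissue because it is made there alone, or because it is made in both and moves in 1.

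The arrays of the 4 groups held between 11755 and 13486 probe sets with an intensity of at least 30, and the 2 arrays of a group had a Pearson r of 0.9845 to 0.9908 over all probe sets. The number of arrays limits the precision. The tissue labels fitted their markers: summed over 5 green tissue markers (RCA, LHCB4.1, LHCB4.2, PRK and SBPASE) the intensity was 19945 to 22045 on the shoot arrays and 263 to 516 on the root arrays, and summed over 3 root markers (PYK10, EXPA7 and EXPA18) it was 3299 to 3838 in roots and 448 to 789 in shoots. In bulk tissue, fewer cells of a type and less RNA per cell cannot be told apart. The shoot arrays of 0.5 h stood apart from all other arrays in a control probe set for 25S ribosomal RNA, which read 212 and 246 there and 889 to 1862 on the other shoot arrays. Every shoot change and tissue difference uses these 2 arrays. The class counts, the chloroplast-encoded genes and the named genes that left their class are therefore also given against 1 h in the cold. The 2 shoot arrays of 1 h were less alike than those of the 4 groups, with a Pearson r of 0.9712.

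Roots and shoots changed differently in 3267 of 22746 probe sets (14.4%; limma, Benjamini-Hochberg adjusted p under 0.05). The difference ran toward roots, meaning a larger rise or a smaller fall there, in 1607 (7.06%), and toward shoots in 1660 (7.30%). It was at least 1 on the log2 scale in 1041 of the first and 1115 of the second. Within roots 4320 probe sets changed (19%), 1559 of them upward (6.85%) and 2761 downward (12.1%). Within shoots 6571 changed (28.9%), 2280 upward (10%) and 4291 downward (18.9%). The split into rises and falls within a tissue depends on the scaling of the arrays. With each array centred on its median, the median change of all probe sets moved by 0.18 in roots and 0.16 in shoots, and the share of rises among the calls went from 36.1% to 64.1% in roots and from 34.7% to 53.3% in shoots. The share of tissue differences toward roots was 49.2% as deposited and 51.7% after centring.

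A probe set was counted as changed in a single tissue where the tissue difference was called, the change in that tissue was called and at least 1 (log2), and the change in the other tissue was not called and under 0.5. By this rule 237 probe sets (1.04% of all) were induced in roots only, 166 (0.730%) repressed in roots only, 488 (2.15%) induced in shoots only and 447 (1.97%) repressed in shoots only. A change that is not called is not shown to be absent. The 0.5 limit was also replaced by the demand that the 95% interval of the other tissue's change lay within 1 log2 unit of 0. The counts were then 203, 150, 481 and 443, of which 203, 149, 475 and 436 were in the same class by the first rule. With 1 h in place of 0.5 h as the baseline in both tissues the classes held 190, 141, 453 and 423, of which 139, 87, 356 and 272 were among the members given above. In another 95 probe sets (0.418%) roots rose and shoots fell, and in 89 (0.391%) roots fell and shoots rose, each by at least 0.5. Against 1 h these 2 classes held 94 and 56, of which 60 and 36 were shared. At the edge of the test, CYP71B26 lay just inside with a tissue difference of −0.96 and AT4G27580 just outside with 1.06.

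**Figure D1:**
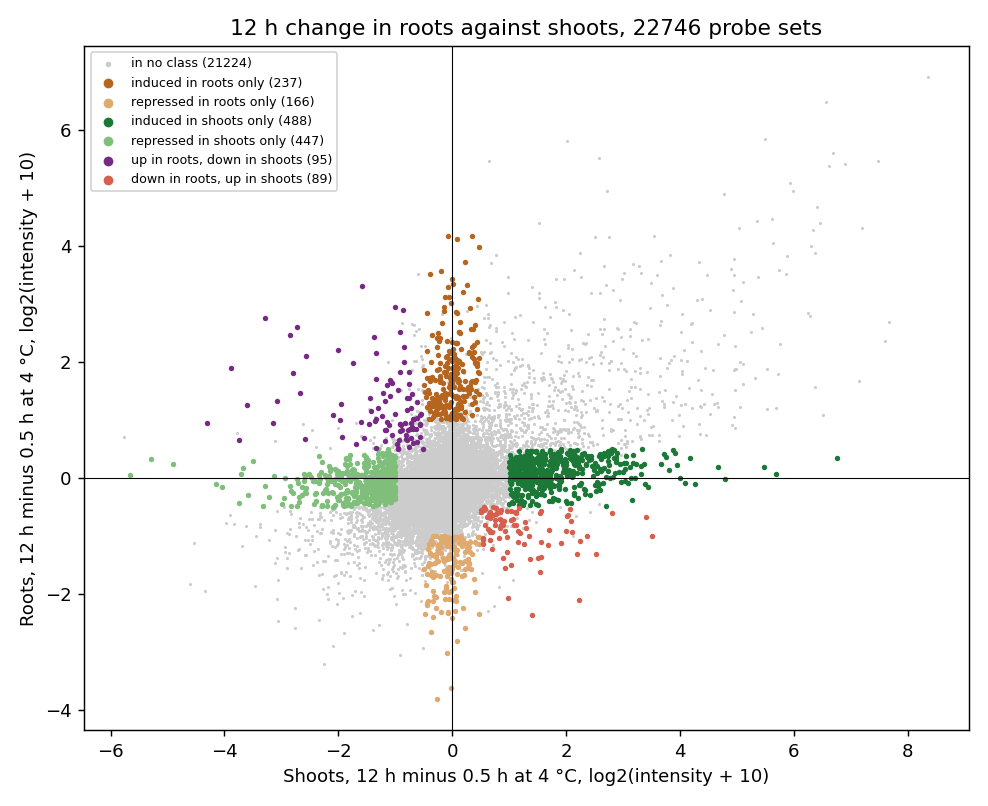
Each point is a probe set, with its change from 0.5 h to 12 h at 4 °C in shoots on the horizontal axis and in roots on the vertical axis (both log2(intensity + 10), means of 2 arrays). Colours mark the classes, which lie by construction along the axes (237, 166, 488 and 447 probe sets) or in the quadrants of opposite sign (95 and 89).

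The other tissue's level set what could be seen of it. Of the 488 probe sets induced in shoots only, 344 read at least 30 on all 4 root arrays and 110 read under 30 on all 4. Of the 447 repressed in shoots only, 186 were measurable in this sense in roots and 215 were dim. Of the 237 induced in roots only 76 were measurable in shoots and 136 were dim, and of the 166 repressed in roots only 45 were measurable and 111 dim. A probe set that is dim in a tissue cannot be seen to fall there. No test was made of these shares.

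The arrays of 1 h and 24 h gave an estimate of the same kind that used none of the 8 arrays that defined the classes, though it shared their estimate of spread. Between 1 h and 24 h a tissue difference was called in 21.8% of all probe sets, toward roots in 10.5% and toward shoots in 11.3%. In that comparison 175 of the 237 probe sets induced in roots only were called toward roots, which is 73.8%, and 1 was called toward shoots. Of those repressed in roots only 103 of 166 (62.0%) were called toward shoots and none toward roots. Of those induced in shoots only 342 of 488 (70.1%) were called toward shoots and 8 toward roots. Of those repressed in shoots only 330 of 447 (73.8%) were called toward roots and 6 toward shoots. A called difference is not a change in a single tissue. Over the same hours 43 of the 237 were called up in shoots and 36 down, and of the 166, 5 up and 34 down. In roots 137 of the 488 were called up and 25 down, and of the 447, 26 up and 106 down. The like shares over all probe sets were not counted. The 1 h and 24 h samples were taken 4 h and 3 h after the light came on, so that these 2 times lay close in the day.

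**Figure D2:**
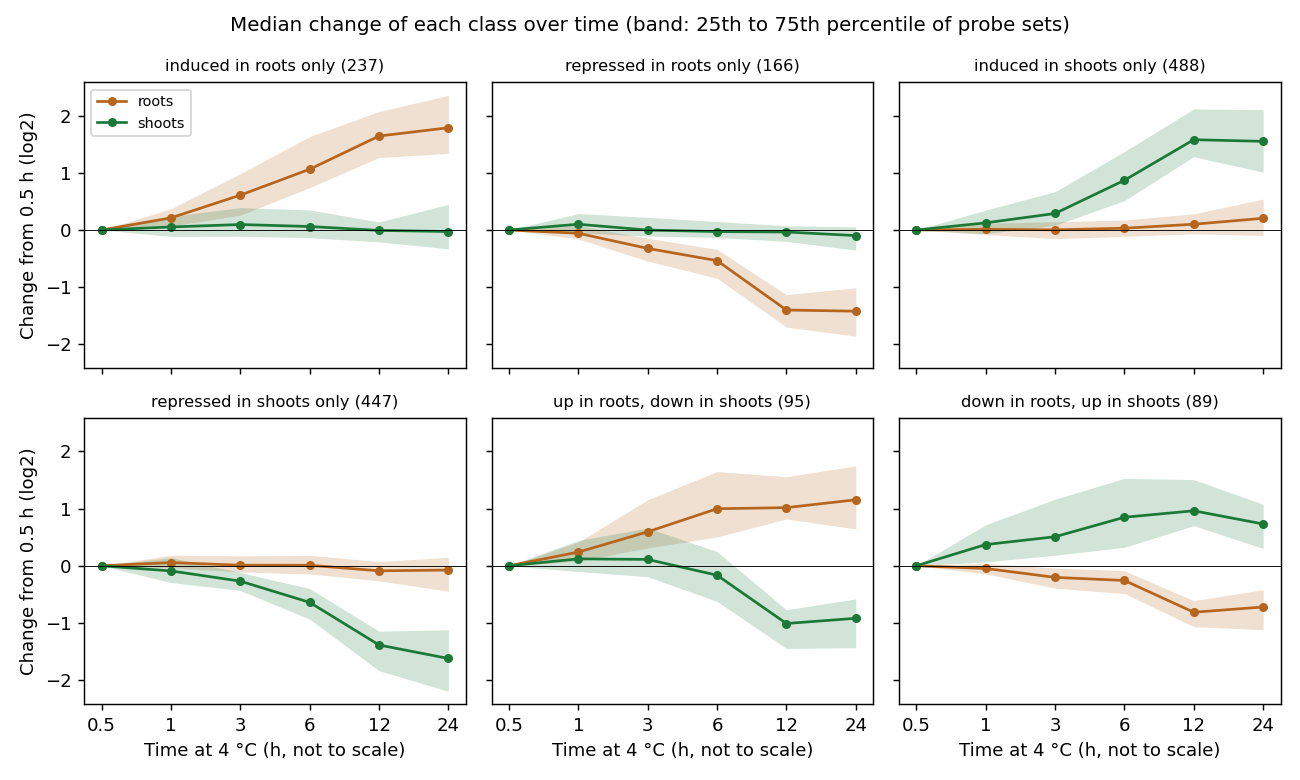
Median change from 0.5 h over the probe sets of each class (log2, vertical axis) against time at 4 °C (horizontal axis, 0.5 to 24 h, not to scale), in roots and shoots, with the 25th to 75th percentile of probe sets as a band. Roots reached 1.06 at 6 h and 1.64 at 12 h in the root-induced class, and shoots reached 0.87 and 1.58 in the shoot-induced class, while the other tissue's median stayed within 0.21 of 0 up to 24 h.

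The cold-regulated genes rose in both tissues, most of them further in shoots, so that they belonged to no single-tissue class. All 6 measured members rose in roots and all 6 in shoots, with a median of 4.47 in roots and 6.55 in shoots, and the tissue difference was called toward shoots in 5 of 6. Over all probe sets the medians were −0.08 and −0.11. LTI30, a dehydrin, read 968 and 787 in roots at 0.5 h and 5147 and 6304 at 12 h. In shoots it went from 12.3 and 27.4 to 6039 and 5723. Both tissues thus ended at a like level, and the tissue difference of −4.98 ± 0.31 (SE; adjusted p = 2.6e-08) came with a root level that was already high at 0.5 h. COR47, another dehydrin, had the same form, with 1512 and 1134 in roots and 196 and 168 in shoots at 0.5 h, and 4824 and 5659 against 6519 and 6209 at 12 h (−3.07 ± 0.37, adjusted p = 2.2e-05). COR15B, a chloroplast protein that protects membranes in the cold, read 16.7 to 36.2 in both tissues at 0.5 h and reached 502 and 531 in roots and 2991 and 3168 in shoots (−2.07 ± 0.43, adjusted p = 0.0032). COR15A, its close relative, had a difference of −1.74 that missed the threshold (adjusted p = 0.057). COR27, a cold-induced gene tied to the clock, rose by 5.41 in roots and 6.90 in shoots. In the comparison of 24 h with 1 h the tissue difference was −5.62 for LTI30 (adjusted p = 1.9e-08) and −0.52 for COR15B (adjusted p = 0.44).

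GI, a component of the circadian clock that peaks late in the day, also rose in both tissues and further in shoots. It read 184 and 191 in roots and 36.8 and 53.6 in shoots at 0.5 h, and 420 and 488 in roots and 1128 and 1105 in shoots at 12 h. The rise was 1.23 in roots and 4.37 in shoots, a difference of −3.14 ± 0.22 (adjusted p = 9e-08). The other measured member of the clock list, AT5G52660, rose by 1.68 in roots and 1.99 in shoots, and its tissue difference was not called (−0.31 ± 0.18, adjusted p = 0.32).

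**Figure D3:**
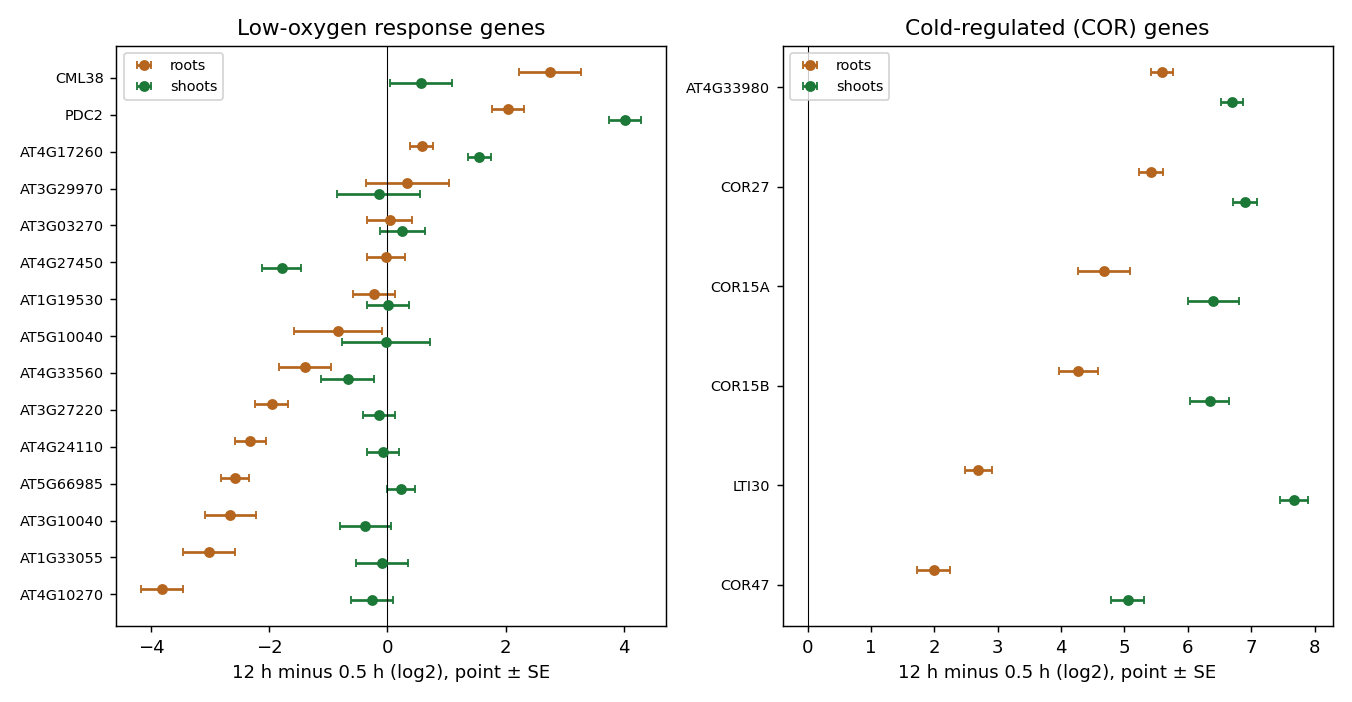
Change from 0.5 h to 12 h (log2, horizontal axis) of 15 measured low-oxygen response genes and 6 cold-regulated genes in roots and shoots, each point with its SE from the fit. Among the low-oxygen genes 7 fell in roots and 1 in shoots, and all 6 cold-regulated genes rose in both tissues, 5 of them by a larger step in shoots by the test.

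Genes induced in roots only included XTH20, CML37 and STZ. XTH20, a xyloglucan endotransglucosylase/hydrolase that recuts the xyloglucan of the cell wall, read 61.7 and 74.2 in roots at 0.5 h and 591 and 582 at 12 h, and stayed between 6.55 and 8.74 in shoots. Its tissue difference was 3.09 ± 0.28 (adjusted p = 9e-07), and 3.70 between 1 h and 24 h. CML37, a calmodulin-like protein that binds calcium, went from 13.3 and 14.6 to 482 and 192 in roots and was below 5 on all 4 shoot arrays, with a difference of 3.49 ± 0.40 (adjusted p = 1.3e-05). STZ, a zinc finger transcription factor of abiotic stress, was 1.59 higher in roots at 12 h, from 571 and 492 to 1868 and 1399, and read 148 and 323, then 279 and 269 in shoots. Its shoot change was 0.31 (adjusted p = 0.43) and its tissue difference 1.28 ± 0.36 (adjusted p = 0.023). Against 1 h the root change of STZ was not called (0.50, adjusted p = 0.21), its shoot level fell by 0.90, and it was in no class. Its tissue difference also lost the call in a fit of the 8 arrays alone (adjusted p = 0.1), and without array 2 of roots 0.5 h (1.18), array 1 of roots 12 h (1.07), array 2 of shoots 0.5 h (0.74) or either shoot array of 12 h (1.31 and 1.25). The tissue difference of STZ between 1 h and 24 h was 2.17 (adjusted p = 0.00036).

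Other root-induced genes were already well expressed in shoots. The locus AT1G80380 had the largest tissue difference of the named genes measurable in shoots. It rose in roots from 156 and 139 to 984 and 774, to about the level that shoots held throughout, 1125 and 1226 at 0.5 h and 945 and 1027 at 12 h (difference 2.74 ± 0.25, adjusted p = 9.8e-07). AT5G15950 moved in the same way, from 173 and 167 to 657 and 694 in roots beside 611 to 634 on the 4 shoot arrays. TET8, a tetraspanin of the plasma membrane and of secreted vesicles, was the higher in roots from the start and went from 598 and 652 to 2082 and 1959 in roots, with 281 and 515, then 317 and 294 in shoots (1.99 ± 0.36, adjusted p = 0.0011). MAP1B, a methionine aminopeptidase, which clips the first residue of new proteins, went from 19.2 and 27.9 to 146 and 122 in roots. It held 66.0 to 101 in shoots, and its difference was 2.36 ± 0.28 (adjusted p = 2.3e-05). The loci AT4G24380 and AT1G33590 followed with differences of 1.87 and 1.86. Some of these genes rose in shoots and came back between 0.5 h and 12 h. At 3 h shoots read 1379 and 1230 for TET8 and 1175 and 841 for AT5G15950. In shoots AT4G24380 went from 74.7 and 133 to 348 and 216 at 3 h, and to 65.8 and 74.0 at 12 h. AT1G33590 went from 360 and 384 to 516 and 784, then 286 and 270. AT1G80380 and MAP1B did not read higher in shoots at 3 h. The class compares 12 h with 0.5 h alone. Against 1 h TET8, AT4G24380 and AT1G33590 kept a called tissue difference (2.04, 1.73 and 1.96) but left the class, with shoot changes of −0.70, −0.79 and −0.58 that were not called.

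Among the root-induced loci that were dim in shoots, AT5G52670 and AT4G39670 led with differences of 3.90 ± 0.80 (adjusted p = 0.0029) and 3.76 ± 0.39 (adjusted p = 5e-06). AT4G39670 went from 60.0 and 53.1 to 977 and 615 in roots and read 12.1 or less in shoots. Not all of these differences were called between 1 h and 24 h. Over that time the tissue difference of AT4G39670 was 0.24 (adjusted p = 0.73) and that of AT5G15950 was −0.03 (adjusted p = 0.95), whereas for TET8 it was 3.18 (adjusted p = 1.2e-05). Both tissues rose for the first of these genes, by 3.19 in roots and 2.96 in shoots. AT5G15950 likewise rose by 1.965 in roots and 1.992 in shoots, and all of these rises were called.

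**Figure D4:**
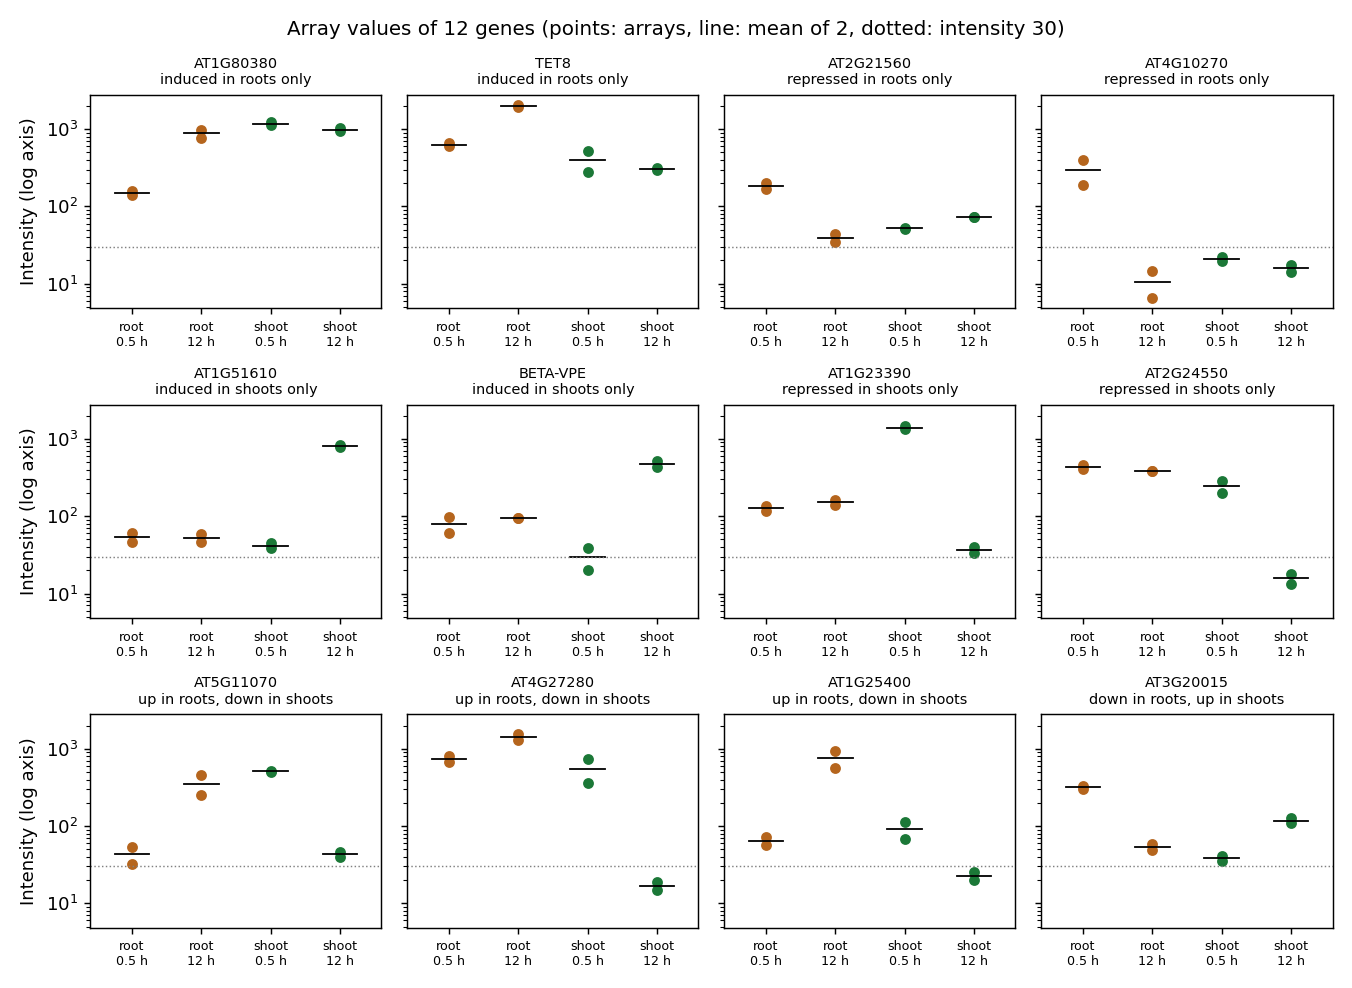
Intensity on each of the 8 arrays (points, log axis) and the mean of 2 (line) for 12 genes from the single-tissue and opposite-direction classes, in roots and shoots at 0.5 and 12 h. AT1G80380 rose in roots to near its shoot level, AT1G51610 rose in shoots from about its root level, and AT1G23390 fell in shoots from 1350 and 1450 to 33.7 and 40.1.

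Genes repressed in roots only held a group of low-oxygen response genes. Plant cells short of oxygen stabilise transcription factors that switch on fermentation and a core of small genes, and this core is readily measured in roots. Of 15 measured genes of the list 7 fell in roots and 2 rose, and 6 of the 7 were in the class repressed in roots only. Among all probe sets 12.1% fell in roots, 6.85% rose there and 0.730% were in that class. The tissue difference was called toward shoots in 8 and toward roots in 1, beside 7.30% and 7.06% of all probe sets. Its median was −0.98 beside 0.03 over all probe sets. AT4G10270 fell most, from 395 and 189 to 14.8 and 6.44 in roots, a change of −3.82 (adjusted p = 9e-07). In shoots it read 14.2 to 22.5. AT1G33055 fell by 3.02, from 632 and 250 to 40.0 and 40.7, and AT5G66985 fell by 2.58, from 909 and 532 to 108 and 108, and both read under 5 on all shoot arrays. In shoots these 3 lay under 30, where a fall can hardly be seen. AT3G10040 fell by 2.66 in roots, from 274 and 94.3 to 22.5 and 12.8. Its tissue difference of −2.29 (adjusted p = 0.018) lost its call without array 1 of roots 0.5 h (−1.56), array 2 of roots 12 h (−2.03), array 2 of shoots 0.5 h (−2.02) or array 2 of shoots 12 h (−2.05). For all 4 genes array 1 of roots 0.5 h was the higher of the pair. AT4G24110 and AT3G27220 completed the 6, with tissue differences of −2.24 and −1.82. Against 1 h AT3G10040 kept a called difference (−2.53) but left the class, with a shoot change of −0.57 that was not called. With that baseline 5 genes of the list were repressed in roots only. With median centring or quantile normalization 6 genes of the list fell in roots.

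PDC2, a pyruvate decarboxylase of the fermentation pathway, rose in both tissues, by 2.04 in roots and 4.03 in shoots (difference −1.99, adjusted p = 0.0018). The single gene called toward roots, AT4G27450, had a root change of −0.03 that was not called and fell by 1.79 in shoots. This call was lost after quantile normalization (difference 1.51), against 1 h (1.31) and without array 2 of roots 0.5 h (1.54), and after median centring 2 genes of the list were called toward roots.

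Chloroplast-encoded genes formed the other main group. All 69 were measured, and 37 fell in roots at 12 h with none rising, with a median root change of −1.01. Among all probe sets 12.1% fell in roots and 6.85% rose. Median-centred, 28 fell, and after quantile normalization 38. By the class rule 15 of the 69 were repressed in roots only, and 5 were with 1 h as the baseline. Of these 5, psbZ, rpl33 and psbK were among the 15, and ndhD and psaI were not. The photosystem II subunit psbZ fell from 669 and 597 to 118 and 133 in roots and read 2202 to 3004 in shoots (difference −2.44 ± 0.58, adjusted p = 0.008). The genes for cytochrome f (petA), an envelope membrane protein (cemA) and a photosystem I assembly factor (ycf4), which are neighbours in the chloroplast genome, fell by 2.32, 2.39 and 1.68 in roots, and rpl33, a ribosomal protein gene, fell by 1.57. Their tissue differences ran from −1.85 to −2.12 at 12 h, and from −0.53 to −0.80 between 1 h and 24 h, where none of the 4 was called. Against 1 h petA, cemA and ycf4 left the class: the difference was −1.66 and −1.60 for petA and cemA, with shoot changes of −0.55 and −0.68, and −1.26 for ycf4, which was not called. The sum of the 5 green tissue markers in roots was 316 and 516 at 0.5 h, 271 and 263 at 12 h and 226 and 197 at 24 h. The median change of the chloroplast-encoded genes in roots was −1.01 at 12 h and −0.55 at 24 h. The 2 root arrays of 24 h were unlike, with 96.1 and 266 for psbZ and 206 and 533 for ycf4 (197 and 232 at 12 h). For psbZ, petA, cemA, ycf4 and rpl33 only array 2 of roots 24 h read above both root arrays of 12 h. The sum over 11 nuclear photosynthesis genes was 664 and 1158 at 0.5 h, then 555 and 583 at 12 h. Of those 11, LHCB4.2, an antenna protein, fell in roots (−2.13, adjusted p = 3.8e-05) and the others were not called, with a list median of −0.46. LHCB4.2 is also among the green tissue markers, of which 1 was called in roots, so the 2 sums are not separate. Whether the amount of green tissue in the root samples plays a part was not tested.

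In shoots the chloroplast-encoded genes turned on the 0.5 h arrays that stood apart. Against 0.5 h, 14 of 69 rose and none fell, and the tissue difference was called toward shoots in 34. The shares of all probe sets were 10% rising and 18.9% falling in shoots, and 7.30% called toward shoots. Against 1 h, none rose and 5 fell, and the tissue difference was called in 8. With 1 h as the baseline in shoots alone it was called in 13. In roots 36 fell against 1 h. psaC, the iron-sulfur subunit of photosystem I, read 217 and 251 in shoots at 0.5 h and 1546 and 1257 at 12 h, but had already reached 1722 and 2128 at 1 h. Its tissue difference was −3.84 against 0.5 h and −0.86 against 1 h (adjusted p = 0.26). psbD, the D2 protein of photosystem II, gave −3.34 and −0.80, and rbcL, the large subunit of Rubisco, gave −3.16 and −0.41. Between 1 h and 24 h the difference was −0.12 for psaC and 0.31 for psbD, neither of them called.

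**Figure D5:**
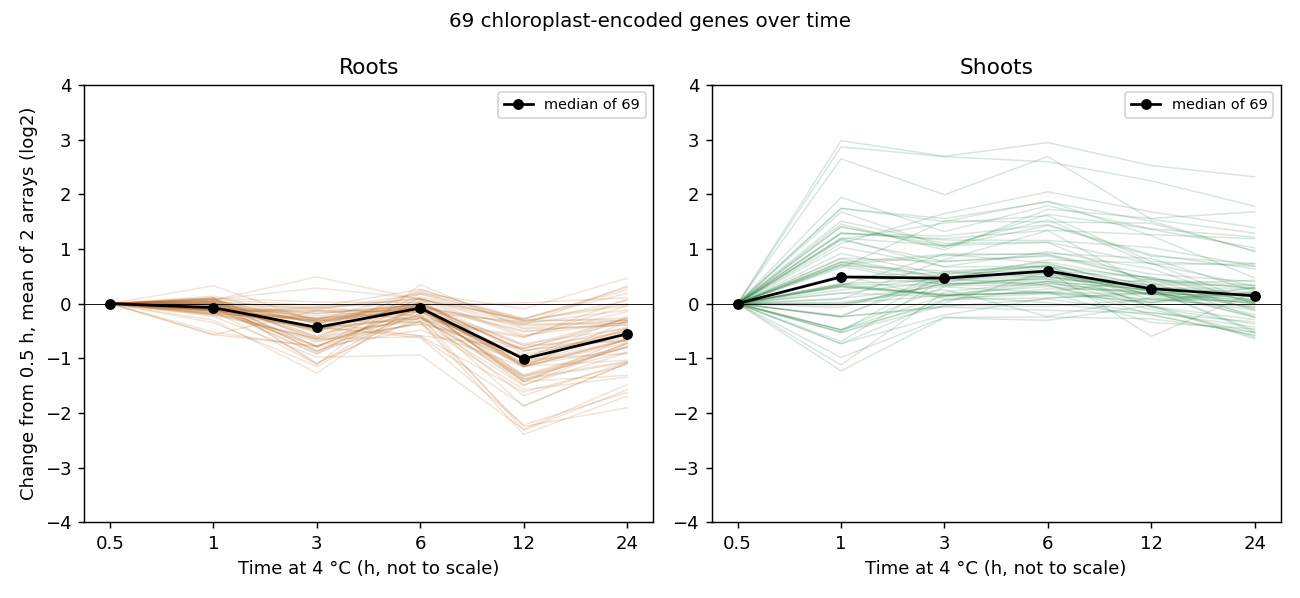
Change from 0.5 h (log2, vertical axis) of each of 69 chloroplast-encoded genes (thin lines) and their median (black) against time at 4 °C (horizontal axis, not to scale), in roots and shoots. The root median was −0.08 at 6 h, −1.01 at 12 h and −0.55 at 24 h, and the shoot median was already 0.49 at 1 h and 0.27 at 12 h. Each value is a mean of 2 arrays, and those of roots 24 h were unlike (96.1 and 266 for psbZ).

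Outside these groups, the roots-only repressed class held AT2G21560, which fell from 198 and 167 to 44.4 and 34.2 in roots and read 50.5 and 53.1, then 71.8 and 72.2 in shoots (difference −2.38 ± 0.36, adjusted p = 0.00019). Against 1 h its shoot change of 0.72 was also called, so that it then counted as opposite. XTH21, a relative of XTH20, fell from 70.0 and 36.6 to 10.3 and 6.19 in roots and was below 1 on the 4 shoot arrays compared. Its difference of −1.72 (adjusted p = 0.0078) lost its call without array 1 of roots 0.5 h (−1.33). IAA30, a repressor of auxin response, fell from 28.8 and 34.1 to 10.3 and 8.05 in roots, with 7.18 to 17.2 in shoots (difference −1.43 ± 0.27, adjusted p = 0.0016). It was the only called difference among 8 measured auxin genes, beside 14.4% of all probe sets called.

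Genes induced in shoots only were the largest class. PWD, the phosphoglucan water dikinase that opens starch for breakdown, read 131 and 129 in shoots at 0.5 h and 523 and 496 at 12 h. In roots it held 82.8 to 106. The difference was −1.97 ± 0.19 (adjusted p = 2.1e-06). DPE1, a plastid enzyme that reworks short glucans from starch, rose by 0.72 in shoots and read 49.8 to 61.2 in roots (difference −0.86, adjusted p = 0.014), below the size limit of the class, and the call was lost without array 1 of roots 12 h (−0.74), of shoots 0.5 h (−0.70) or of shoots 12 h (−0.79). BETA-VPE, a vacuolar protease known for processing seed storage proteins, went from 20.2 and 38.8 to 433 and 523 in shoots. Its root level was 61.3 and 99.1, then 94.2 and 94.6, so that shoots began below roots and ended above them (difference −3.42 ± 0.30, adjusted p = 8.5e-07).

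Among the loci that read at least 30 in roots, AT1G51610 began at 44.5 and 38.8 in shoots, near its root level of 45.9 to 60.4, and reached 798 and 838 in shoots alone (−4.01 ± 0.27, adjusted p = 5.6e-08). AT5G63990 read 4.03 and 2.73 in shoots against 122 and 124 in roots at 0.5 h, and 222 and 244 against 158 and 160 at 12 h (−3.84 ± 0.33, adjusted p = 5.4e-07). AT2G28720, AT5G14550 and AT1G49560 also started below their root level in shoots and passed it, with differences of −3.55, −3.40 and −3.15. Against 1 h AT5G63990 and AT2G28720 kept called differences (−3.23 and −3.75) but left the class, with root changes of 0.51 and −0.63 that were not called. BETA-VPE and these 5 loci were all called in the same direction between 1 h and 24 h, with differences from −1.96 to −3.62. Over those hours AT5G63990 and BETA-VPE also rose in roots, by 1.11 and 0.81, both called, and the other loci had no called root change.

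Other loci of the class were dim in roots. AT1G20030 rose in shoots from 1.33 and 9.88 to 1711 and 1518, and read 28.2 or less in roots, a difference of −6.42 ± 0.40 (adjusted p = 2.6e-08). AT2G39920 and AT3G25870 gave −4.83 and −3.68. For each of these 3 the comparison of 24 h with 1 h gave −5.27, −3.10 and −2.94. AT1G54410, counted with the LEA proteins by its annotated name, was abundant in both tissues. It rose in shoots from 1745 and 1813 to 5283 and 5138 and read 2881 to 4206 in roots (−1.21 ± 0.19, adjusted p = 0.0003).

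Genes repressed in shoots only included EXGT-A3, a xyloglucan endotransglucosylase that remodels the cell wall. It fell from 858 and 867 to 116 and 128 in shoots and read 264 and 185, then 166 and 144 in roots (difference 2.24 ± 0.34, adjusted p = 0.00019). Against 1 h its difference was 2.34 and its root change −0.71 (adjusted p = 0.05), past the size limit of the class. EXPA8, one of the wall-loosening expansins, fell by 3.45 in shoots, from 613 and 605 to 46.0 and 47.6. It also fell by 1.01 in roots, from 29.9 and 49.1 to 14.7 and 13.6, a call near the threshold (adjusted p = 0.049), so it was in no single-tissue class although its difference was called (2.44 ± 0.48, adjusted p = 0.0021). Of 17 measured expansins and xyloglucan hydrolases 3 differed toward roots and 1 toward shoots; 4 fell and 3 rose in roots, and 5 fell and 2 rose in shoots. Among all probe sets 7.06% differed toward roots and 7.30% toward shoots. The list median of the tissue difference was −0.03, near that of all probe sets.

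Among the genes of the class that read at least 30 in roots and had 1 annotated gene, AT1G23390 had the largest difference, 5.15 ± 0.32 (adjusted p = 2.6e-08). It fell in shoots from 1350 and 1450 to 33.7 and 40.1 and read 118 to 162 in roots, so that the order of the tissues turned. The turn held between 1 h and 24 h, with a difference of 5.09. AT2G24550 fell from 202 and 287 to 13.5 and 18.1 in shoots and read 389 to 460 in roots (3.15 ± 0.30, adjusted p = 1.9e-06). AT3G56360, AT5G46780, AT2G04795 and AT1G54740 had differences from 2.60 to 2.90. Only AT1G54740 among these 6 was not called between 1 h and 24 h (0.64, adjusted p = 0.26). AT4G33666, AT2G03750 and AT2G34620 were dim in roots and fell by 4.15, 4.04 and 3.74 in shoots, from 974 and 973, from 464 and 378 and from 934 and 917. Against 1 h AT2G34620 had a difference of 2.91 but left the class, with a root change of −0.57 that was not called.

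Single enzymes of secondary metabolism differed between tissues in either direction. Among 43 measured UGT glycosyltransferases, which attach sugars to small molecules, 7 differed toward roots and 6 toward shoots. Of 24 cytochrome P450 genes 3 differed toward roots and 2 toward shoots, and of 12 glutathione transferases 2 toward roots and none toward shoots. Over all probe sets 7.06% were called toward roots and 7.30% toward shoots. No test of these families was made. UGT78D3, a flavonol glycosyltransferase, rose in shoots only, from 0.87 and 1.77 to 37.6 and 40.5, and its neighbour in name UGT78D1 fell in shoots only, from 188 and 198 to 78.0 and 77.7. UGT78D2, which adds glucose to flavonoids, rose by 1.66 in roots and 1.76 in shoots with no called difference (−0.11, adjusted p = 0.81). UGT72E1, which acts on lignin precursors, fell by 0.92 in roots and rose by 0.93 in shoots. UGT72B3 rose by 1.98 in shoots only, and UGT73B5 rose by 1.29 in roots only. Of 24 cytochrome P450 genes, CYP71B37 was repressed in roots only (137 and 130 to 22.9 and 24.7) and CYP71B36, the gene beside it on the chromosome, in shoots only (37.0 and 41.4 to 2.13 and 11.9). CYP71B24 fell by 1.16 in shoots only. Of 12 glutathione transferases, GSTU18 (359 and 363 to 94.3 and 78.2) and GSTU16 (169 and 179 to 76.7 and 79.2) fell in shoots only. Between 1 h and 24 h GSTU18 again differed toward roots (adjusted p = 0.00043), whereas GSTU16 differed toward shoots (−0.97, adjusted p = 0.013). The calls for UGT78D1, UGT73B5 (difference 1.68, then adjusted p = 0.078), CYP71B24, CYP71B36 and GSTU16 were each lost with a pseudocount of 1. UGT73B5 also lost its call without array 1 of shoots 12 h (1.41). GSTU16 also lost its call against 1 h (0.43) and without any single array of those compared (0.76 to 0.94). UGT78D1, CYP71B24 and CYP71B36 also lost their calls against 1 h (0.60, 0.08 and 1.05). In most fits without a single compared array their calls were lost too, at differences of 0.66 to 0.97, 0.85 to 1.36 and 0.97 to 1.47.

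In other lists few differences were called. Of 12 ribosome biogenesis genes 4 rose in shoots and none in roots, and none differed between the tissues by limma (1 at an unadjusted p under 0.05). Among all probe sets 10% rose in shoots, 6.85% rose in roots and 14.4% had a called tissue difference. The median of the ribosome biogenesis genes was 0.17 in roots and 0.31 in shoots. Of 6 class III peroxidases, 3 heat shock genes, 3 endoplasmic reticulum folding genes and 3 core histones none differed by limma either (1, 0, 0 and 1 at an unadjusted p under 0.05). BGLU42, a beta-glucosidase induced when iron is short, rose in shoots by 0.83 with 99.7 to 120 in roots (difference −0.93, adjusted p = 0.01), and was the 1 called gene of 4 in the iron list. The call was lost without array 1 of roots 0.5 h or of shoots 0.5 h (−0.81 in both cases). LEA4-5, a late embryogenesis abundant protein under abscisic acid control, rose by 4.16 in roots and 2.76 in shoots. Its difference ran toward roots at 12 h (1.40, adjusted p = 0.031) and toward shoots between 1 h and 24 h (−1.42, adjusted p = 0.021). The 12 h call was lost with a pseudocount of 1 (1.04, adjusted p = 0.58) and without any 1 of 6 of the 8 arrays, either array of roots 0.5 h or shoots 0.5 h or array 1 of either 12 h group (differences from 1.17 to 1.51).

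From 0.5 h to 12 h the tissues moved in opposite directions in 95 and 89 probe sets, whatever they did in between. AT5G11070 rose in roots from 32.5 and 53.8 to 460 and 250 and fell in shoots from 512 and 507 to 39.7 and 46.8, so that the tissues exchanged levels (difference 6.04 ± 0.44, adjusted p = 1.3e-07). AT4G27280 rose in roots from 815 and 670 to 1560 and 1307 and fell in shoots from 363 and 741 to 15.1 and 18.9 (5.24 ± 0.35, adjusted p = 5.5e-08). AT1G25400 rose in roots from 71.2 and 57.7 to 936 and 565 and fell in shoots from 67.7 and 113 to 20.1 and 25.4 (4.90 ± 0.40, adjusted p = 3.4e-07). Before these falls AT5G11070 and AT1G25400 had risen in shoots, to 1345 and 1600 and to 546 and 860 at 3 h. AT4G27280 had not, with 457 and 458 in shoots at 3 h. In roots AT5G11070 was back at 49.6 and 79.5 at 24 h. The group with falling roots and rising shoots held 11 of the 69 chloroplast-encoded genes, whose shoot rise is the one that rests on the 0.5 h arrays. Apart from these, AT3G20015 fell in roots from 305 and 329 to 48.8 and 58.0 and rose in shoots from 35.4 and 41.1 to 126 and 108 (−3.77 ± 0.24, adjusted p = 3.6e-08). Of the 95, 82 were called toward roots between 1 h and 24 h (86.3%), and of the 89, 52 were called toward shoots (58.4%).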

How the data were processed

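Affymetrix ATH1 arrays were hybridised with total RNA. The authors made the deposited intensity of each probe set, a linear value, with MAS5, per the submitters' processing notes. Its version and settings are not stated in those notes as given here, and no detection calls were used. Every array had a 2% trimmed mean of 100, so each had been scaled to 1 target, which can move the balance of rises and falls within a tissue.

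To each of the deposited values 10 was added and log2 was taken, which understates changes of dim genes. The 12 group means were fitted over all 24 arrays with limma 3.58.1 in R 4.3.3 (12 residual degrees of freedom, prior 4.1), 2-sided, adjusted by Benjamini-Hochberg over 22746 probe sets at 0.05, with no filter (16073 reached 30 on at least 2 arrays). The fit was tested on simulated data. Replicate numbers did not pair the samples (correlations of deviations from −0.079 to 0.045).

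Of the probe sets, 13513 had 1 gene in the platform annotation, 503 several and 8730 none listed. Of these, 13436 were matched to RefSeq (TAIR10.1), used for names and gene order. Named genes had 1 gene (its probe set of highest mean), ranked by size of the tissue difference with both 12 h arrays beyond both 0.5 h arrays: in each single-tissue class the 6 first that read at least 30 on all 4 arrays of the other tissue and the 3 first that read under 30 on all of them, 3 per opposite direction, and up to 4 per list. STZ, PWD and other list members fall under the last part, and COR27, rbcL, UGT78D1, UGT78D2, CYP71B24, AT3G10040, AT4G24110, AT3G27220, AT4G27450, CYP71B26 and AT4G27580 were named after their values were seen. The members and lists were chosen with earlier results of these data known, and list membership comes from general knowledge. Alternatives changed the pseudocount, filter, scaling, prior, replicate block, baseline, class limits and arrays.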

Additional observations from a re-analysis of the deposited data

Results flagged for a closer look

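For 8 results the changes from 0.5 h to 12 h differed between the tissues in sign, with the tissue difference itself tested by limma and called. They are the 95 probe sets that rose in roots and fell in shoots, the 89 that fell in roots and rose in shoots, and the 6 genes that lead these groups. The tissue difference was 6.04 for AT5G11070, 5.24 for AT4G27280 and 4.90 for AT1G25400, with roots rising. It was −3.84 for psaC, −3.77 for AT3G20015 and −3.34 for psbD, with roots falling. Against 1 h in the cold AT5G11070 (5.69), AT1G25400 (5.76) and AT3G20015 (−3.19) again had opposite called changes. AT4G27280 had a difference of 4.89, but its root change of 0.31 was then not called. For psaC (−0.86) and psbD (−0.80) the difference was not called.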

How the results depend on the processing

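No tissue difference of a single gene computed under the alternatives changed from a call in one direction to a call in the other. The balance of rises and falls within a tissue did turn under median centring, and the chloroplast-encoded genes called in shoots were 14 rises and 0 falls against 0.5 h but 0 rises and 5 falls against 1 h. Of 3486 values of single genes (184 genes), 3315 kept their side of the threshold, 115 lost it and 56 gained it. The counts open to processing included those of both repressed single-tissue classes and of the class falling in roots and rising in shoots. The roots-only repressed class held 105 probe sets with a pseudocount of 1 and 107 with 32, and the shoots-only repressed class 293 with 32. The class falling in roots and rising in shoots held 46 with a pseudocount of 32, 49 with median centring, 56 with 1 h as the baseline and 59 with 1 h as the baseline in shoots alone, an alternative chosen after seeing the data. The array pairs of shoots 1 h and roots 3 h had the lowest Pearson r of the series (0.9712 and 0.9695). Without shoots 1 h array 1 and roots 3 h array 2 the fit gave 5268 probe sets changed in roots and 94 in the class falling in roots and rising in shoots. With no limit on size the single-tissue classes held 356, 349, 797 and 797 (induced and repressed in roots, induced and repressed in shoots). Chloroplast-encoded genes with a tissue difference numbered 52 from the 8 arrays alone, 8 against 1 h and 13 against 1 h in shoots alone. Leaving out each array in turn gave 2762 to 4150 probe sets changed in roots (2765 and 2762 without replicate 1 and 2 of roots 12 h) and 41 to 72 in the class falling in roots and rising in shoots (52 and 56 without replicates 1 and 2 of roots 0.5 h, 41 and 49 without those of roots 12 h); fewer arrays also leave less power. With the replicate number as a block 3125 tissue differences were called (1536 and 1589), and no count moved by over 1.5 times. COR27, EXPA8 and XTH21 lost their tissue difference with a pseudocount of 1, and LHCB4.2 with 32. With 2 arrays a group, a gene near the floor of the array has only a bound on its change.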

Other observations

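Further groups were picked after their values were seen, so their counts describe and test nothing. Of 17 measured sugar transporters 4 were induced in shoots only, beside 2.15% of all probe sets. TMT2 and TMT1, which load sugar into the vacuole, are among them: TMT2 rose in shoots from 70.2 and 86.7 to 559 and 506 and read 61.3 to 75.6 in roots, and the tissue differences were −2.50 (adjusted p = 3.7e-06) and −1.71 (adjusted p = 8.4e-06). SWEET13, a sucrose exporter, gave −1.92, and SWEET4 rose in shoots from 14.1 and 20.4 to 60.6 and 51.3. The SWEET13 difference lost its call against 1 h (−1.43) and without array 1 of shoots 0.5 h (−1.65). The SWEET4 difference lost its call with a pseudocount of 1 (−1.13), with 1 h as the baseline in shoots alone (−0.75) and without array 1 of roots 0.5 h (−0.89), array 2 of roots 12 h (−0.89), array 1 of shoots 0.5 h (−0.83) or array 1 of shoots 12 h (−0.90). SWEET2, a vacuolar sugar carrier of roots, rose by 0.93 in roots and fell by 0.92 in shoots. Of 4 stomatal lineage genes STOMAGEN, a secreted peptide that raises stomatal number, fell by 2.40 in shoots and SPCH, the factor that starts the lineage, by 1.22, and both read under 3 on the 4 root arrays. Of 7 ATG8 genes, whose products mark autophagosomes, ATG8E and ATG8H fell in shoots only (by 1.51 and 1.05), calls that were lost against 1 h. WRKY6, a transcription factor of senescence and defence, rose in roots only, from 117 and 141 to 565 and 523, and read under 10 in shoots.

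Neighbouring genes were compared by their order in the RefSeq table. Of 5909 neighbouring pairs with both genes measured, 33 had both genes in a single-tissue class (0.558%), 19 of them in the same one. Of 12331 measured genes with a place in that order, 693 (5.62%) were in a single-tissue class. No test of the pairs was made. AT5G52670, AT5G52680 and AT5G52690 lie side by side and were all induced in roots only, by 3.51, 3.11 and 2.18. PORB, an enzyme of chlorophyll synthesis, was induced in shoots only (1.98) and its neighbour AT4G27450 repressed in shoots only (−1.79). Probe sets of related neighbours can share target sequence, and overlap between them was not tested.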
